A study of Mus musculus with 6 samples.

Results

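The genes described here encode integrins, the receptors that hold cells to their matrix, and laminins, the basement membrane proteins that several integrins bind. They were taken by symbol: every transcript cluster, the set of probes that stands for a gene or transcript on the array, with a single symbol of an integrin alpha chain, an integrin beta chain or a laminin chain, and where a gene had several, only the brightest by its mean over the 6 arrays was kept. This gave 36 genes (18 integrin alpha, 8 integrin beta and 10 laminin genes) of the 19938 genes with a single symbol. Only Itgad had more than 1 transcript cluster with its own symbol.

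RNA came from MLE15, a mouse lung epithelial line grown from tumors of transgenic mice in which the human surfactant protein C promoter drives the large T antigen of simian virus 40. The Nkx2-1-shRNA lines (n = 3) were transduced with a mix of 3 lentiviral shRNAs in the vector pLKO.1 against Nkx2-1, the homeobox factor that directs lung epithelial gene expression. The control lines (n = 3) received the empty pLKO.1 vector according to the sample records, whereas the paper calls them a non-silencing control. Lines of both groups carried the vector and went through puromycin selection. The lines were transduced independently from the same parental line, so the spread among them is that of 1 cell line in culture. The sample labels give 48 h for every sample, whereas the methods speak of stable lines. The question was which mRNAs differ once Nkx2-1 is reduced. Values are log2 intensities from Mouse Gene 1.0 ST arrays after Robust Multi-Array Analysis (RMA), 1 array per line, so differences between groups are log2 fold changes (Nkx2-1-shRNA over control).

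An integrin is a pair of an alpha and a beta chain that spans the membrane, and the pair decides the ligand: laminin, collagen, or matrix proteins that carry the tripeptide Arg-Gly-Asp (RGD). A laminin is a trimer of an alpha, a beta and a gamma chain that assembles in the endoplasmic reticulum and then polymerizes into the sheet under an epithelium. Lung epithelium rests on such a sheet, and the integrin of Itga6 and Itgb4 ties it to keratin through hemidesmosomes.

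Nkx2-1 had log2 values of 7.91, 7.98 and 7.83 in Nkx2-1-shRNA lines, against 8.61, 8.61 and 8.59 in control lines, 61.8% of control. All knock-down values lay below all control values (log2 fold change −0.69, SE 0.076, limma adjusted p = 0.00155; exact two-sided permutation test, p = 0.1, the smallest that 3 lines against 3 allow). With a test for unequal variances its adjusted p was 0.0550, and it ran from 1.17e-04 to 0.0550 over the alternatives. Correlations between arrays across transcript clusters were at least 0.991 within a group and at most 0.983 between groups. Array medians were 5.10 to 5.14 in Nkx2-1-shRNA lines, against 5.18 to 5.21 in control lines. A limit for background of 4.35 was set at the 95th percentile of odor, taste and pheromone receptor genes. All 7 lung epithelial markers exceeded it in at least 1 group, with a mean over the list of 9.59 to 9.79 in Nkx2-1-shRNA lines, against 10.11 to 10.22 in control lines. The mean includes Sftpc, the largest change of the list, and the median log2 fold change of the 7 markers was 0.12. Of these, Krt18, a keratin of simple epithelia, rose by 0.44 on the log2 scale (adjusted p = 0.00825), Nkx2-1 itself and Sftpc, the surfactant protein C gene, fell, and Epcam, Cdh1, Krt8 and Sftpb did not pass. Sftpc was at least 10.4-fold lower, at 4.08 in Nkx2-1-shRNA lines, below the limit, against 7.73 in control lines (adjusted p = 1.95e-04). The part of these markers in the results was not tested. Below the limit in both groups were 4 of 8 leukocyte, 4 of 6 endothelial and 3 of 10 fibroblast and smooth muscle markers. Examples are Ptprc and Cd52 of leukocytes, Pecam1 and Cdh5 of endothelium, and Dcn and Lum of fibroblasts. The rest exceeded the limit in at least 1 group. Among these, Cd68 of leukocytes averaged 6.67 in Nkx2-1-shRNA lines and 6.81 in control lines, and Col1a1 of fibroblasts 5.90 and 5.81.

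Of the 36 integrin and laminin genes, 11 rose, 3 fell and 22 did not pass an adjusted p of 0.05. Over all 35557 transcript clusters 16.8% passed that threshold (7.61% higher and 9.24% lower), and of all genes with a single symbol 20.5%. The genes that rose were Itga2, Itga3, Itgb1, Itgb4, Itgb5, Itgb6, Lama3, Lama5, Lamb2, Lamb3 and Lamc1, and those that fell were Itga1, Itgav and Lamb1. The 26 genes above background in at least 1 group held all 14 of these, whereas of the genes above background over the whole array 29.2% passed (15.3% higher and 13.9% lower). None of the other 10 passed in limma, and 1 of them, Lama4, had an unadjusted limma p below 0.05. The median log2 fold change of the 36 genes was 0.04, and that of all transcript clusters was −0.03. Values of the groups did not overlap for 13 genes higher and 6 lower in the knock-down, where 34.9% of all transcript clusters had no overlap. Of the 26 genes above background, 12 were higher and 5 lower without overlap. Of the 13563 genes above background over the whole array, 3545 were higher and 3580 lower without overlap, a similar share. At the threshold of the study, an adjusted p under 5e-04 and a change of more than 0.6 on the log2 scale, Lamb3, Lama3 and Itga3 remained, all higher, and 1.26% of all transcript clusters passed it. With each of the 6 lines left out in turn, none of the 3 reached that stricter threshold. With each array centered on its median, 12 of the 36 genes were higher and 3 lower, while over all transcript clusters the split of 2705 higher and 3284 lower became 3484 higher and 2376 lower.

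**Figure D1:**
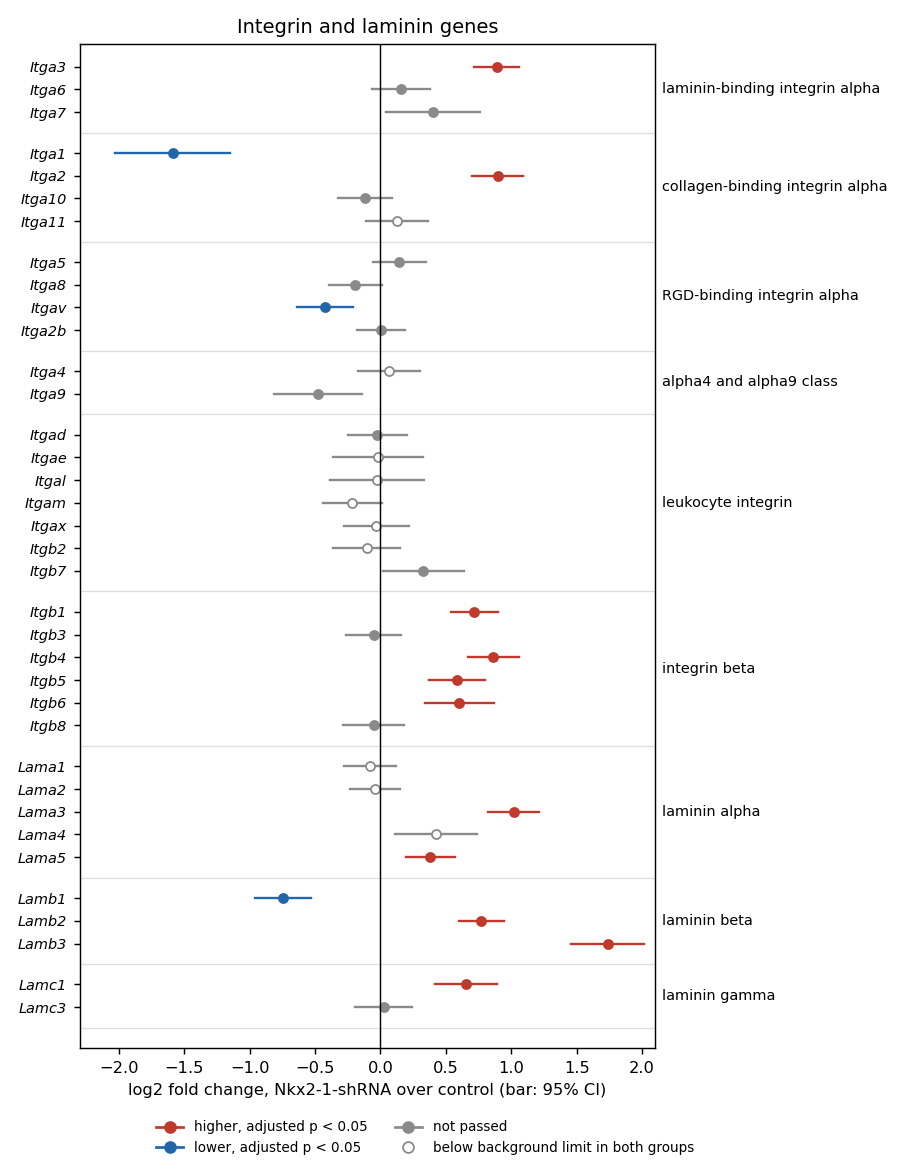
Log2 fold change (x axis, Nkx2-1-shRNA over control, 3 lines each) of each of the 36 genes, grouped by role, with 95% confidence intervals as bars. Red marks the 11 genes that rose, blue the 3 that fell and gray the 22 that did not pass; open circles are genes that neither group brought above the background limit.

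Of the 10 laminin genes 5 rose and 1 fell, where 7.61% of all transcript clusters were higher and 9.24% lower. The shares among genes above background over the whole array were 15.3% higher and 13.9% lower. Among the laminin genes the beta chains differed most from one another. The largest change among those measured above background in both groups was that of Lamb3. Lamb3 encodes the beta chain of the epithelial laminin that anchors hemidesmosomes, in a trimer with the alpha chain of Lama3. It had log2 values of 9.12, 9.17 and 8.94 in Nkx2-1-shRNA lines, against 7.34, 7.52 and 7.16 in control lines. The groups lay far apart, the lowest knock-down value more than 1 log2 unit above the highest control value. Lamb3 was 3.33-fold higher (log2 fold change 1.74, 95% confidence interval 1.46 to 2.01, SE 0.12, adjusted p = 2.48e-04).

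Lama3, the alpha chain of the same trimer, had log2 values of 5.97, 5.84 and 5.90 in Nkx2-1-shRNA lines, against 4.95, 4.80 and 4.90 in control lines. The groups did not overlap, and the lines within each differed by less than 0.2. Lama3 was 2.03-fold higher (log2 fold change 1.02, SE 0.082, adjusted p = 4.83e-04).

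Lamb2, a beta chain common in the basement membranes of kidney and muscle, had log2 values of 8.34, 8.34 and 8.41 in Nkx2-1-shRNA lines, against 7.62, 7.59 and 7.57 in control lines. It was 1.71-fold higher (log2 fold change 0.77, SE 0.072, adjusted p = 8.25e-04), with the tightest control values of the laminin genes. Lamb1, the beta chain that pairs widely in embryonic and adult basement membranes, went the other way. Its log2 values were 8.44, 8.31 and 8.31 in Nkx2-1-shRNA lines, against 9.21, 9.08 and 9.0001 in control lines. The knock-down lines were all lower than the control lines, and Lamb1 fell to 59.7% of control (log2 fold change −0.74, SE 0.090, adjusted p = 0.00236).

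Because Lamb3 and Lamb1 moved in opposite directions, their promoters are shown, from 250 bases before to 50 bases after the start, as RefSeq places it in GRCm38.p6. The window of Lamb3 is chr1:193301744-193302043 on the plus strand (the first of its 2 starts), and that of Lamb1 is chr12:31265043-31265342 on the plus strand. Capitals mark CAAG, the core of the Nkx2-1 binding sequence, or its reverse complement CTTG, and the whole of CACTTG, the reverse complement of the longer string CAAGTG.
Lamb3: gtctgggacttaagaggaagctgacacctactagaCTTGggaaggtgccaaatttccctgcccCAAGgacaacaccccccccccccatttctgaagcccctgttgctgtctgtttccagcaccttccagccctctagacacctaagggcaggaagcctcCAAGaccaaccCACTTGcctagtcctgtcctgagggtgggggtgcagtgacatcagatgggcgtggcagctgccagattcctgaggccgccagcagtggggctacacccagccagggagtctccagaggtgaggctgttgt
Lamb1: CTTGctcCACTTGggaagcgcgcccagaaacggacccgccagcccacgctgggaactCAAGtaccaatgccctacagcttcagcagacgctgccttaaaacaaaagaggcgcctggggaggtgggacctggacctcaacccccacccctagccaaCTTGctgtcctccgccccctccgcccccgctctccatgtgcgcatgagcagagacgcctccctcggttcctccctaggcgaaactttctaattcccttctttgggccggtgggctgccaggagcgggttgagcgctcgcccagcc
Each window held 4 matches to the core, and 1 of them in each was the longer string. The core is common: 90.6% of 32851 mouse promoters of this length held it on either strand, with a median of 2 matches, and 13.6% held the longer string. Promoters were at hand for 23 of the 36 genes. The longer string stood in those of Lamb3, Lamb1, Itgb5 and Itga8, that is in 3 of the 11 genes that passed and 1 of the 12 that did not. These matches are descriptions of the letters and not of binding.

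The other laminin chains changed less. Lamc1, the gamma chain of most laminins, had log2 values of 9.99, 9.79 and 10.00 in Nkx2-1-shRNA lines, against 9.37, 9.16 and 9.29 in control lines. It was 1.57-fold higher, with no overlap (log2 fold change 0.65, SE 0.099, adjusted p = 0.00569; 0.05001 with unequal variances, and 5.51e-04 to 0.05001 over the alternatives). Lamc1 was the only one of the 36 genes on the study's list of predicted miR-200c targets. The paper reports higher miR-200c in the knock-down cells and kept as candidates only listed genes that fell, whereas Lamc1 rose. A part of miR-200c in the change of Lamc1 was not tested. Lama5, the main alpha chain of adult lung epithelium, had log2 values of 9.53, 9.42 and 9.50 in Nkx2-1-shRNA lines, against 9.11, 9.17 and 9.02 in control lines. There was no overlap, and the log2 fold change of Lama5 came to 0.38 (SE 0.080, adjusted p = 0.0193). That call was lost without Nkx2-1-shRNA line 1 (adjusted p = 0.0806), Nkx2-1-shRNA line 3 (0.0668) or control line 1 (0.0522), in a range of 0.00623 to 0.0806 over the alternatives. The other 4 laminin genes did not pass. Lama1, an embryonic alpha chain, and Lama2, the alpha chain of muscle, did not reach the background limit in either group and had log2 fold changes of −0.08 and −0.04. Lama4, the alpha chain of vessels, was below the limit too, at 3.79 ± 0.21 in Nkx2-1-shRNA lines, against 3.36 ± 0.14 in control lines (SD, n = 3). Its log2 fold change was 0.42 (adjusted p = 0.0724; 0.0231 to 0.225 over the alternatives). Lamc3, a gamma chain found outside most epithelia, had a log2 fold change of 0.02.

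**Figure D2:**
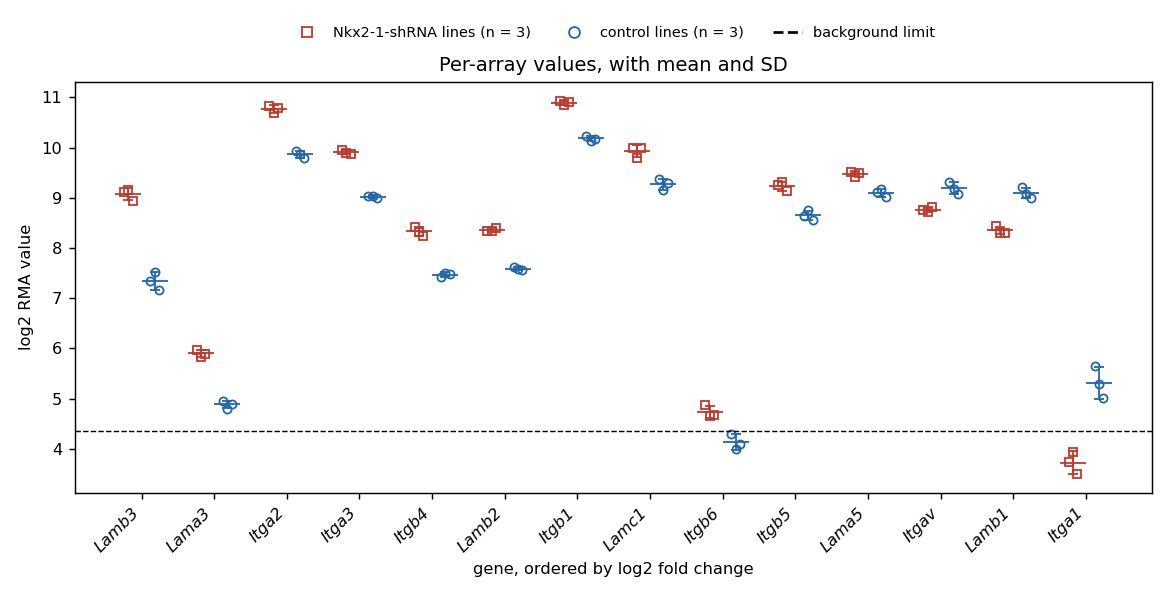
Log2 RMA values (y axis) of the 14 genes that passed, per array, ordered by log2 fold change (x axis), with Nkx2-1-shRNA lines as squares on the left and control lines as circles on the right; bars give the mean and SD of 3 lines. No gene overlapped between the groups, and a dashed line marks background (4.35), which Itga1 in Nkx2-1-shRNA lines and Itgb6 in control lines do not reach.

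Of the 3 alpha chains that bind laminin, Itga3 rose and Itga6 and Itga7 did not pass. Itga3, which pairs with Itgb1 into a receptor for the laminins of Lama3 and Lama5, had log2 values of 9.95, 9.90 and 9.88 in Nkx2-1-shRNA lines, against 9.04, 9.04 and 8.99 in control lines. The 3 lines of each group differed by less than 0.1, and Itga3 was 1.85-fold higher (log2 fold change 0.89, SE 0.071, adjusted p = 4.81e-04). Itga6, the alpha chain of the hemidesmosome, had log2 values of 10.30, 10.13 and 10.28 in Nkx2-1-shRNA lines, against 10.21, 10.05 and 9.99 in control lines. The groups overlapped, and the 95% confidence interval of its log2 fold change of 0.16 ran from −0.07 to 0.38 (adjusted p = 0.339). Itga7, best known as the laminin receptor chain of muscle, averaged 5.19 ± 0.29 in Nkx2-1-shRNA lines, against 4.79 ± 0.11 in control lines (SD, n = 3). Its log2 fold change of 0.40 did not pass (adjusted p = 0.131). Without Nkx2-1-shRNA line 3, the lowest of its group at 4.89, it did (0.0409; 0.0409 to 0.350 over the alternatives).

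The alpha chains that bind collagen split. Itga1 and Itga2 lie next to each other on chromosome 13 on the same strand, and each pairs with Itgb1, Itga1 with a preference for basement membrane collagen and Itga2 for fibrillar collagen. Itga2 had log2 values of 10.82, 10.68 and 10.80 in Nkx2-1-shRNA lines, against 9.94, 9.87 and 9.80 in control lines. All knock-down values lay above all control values, a 1.86-fold rise (log2 fold change 0.90, SE 0.082, adjusted p = 7.99e-04). Itga1 had log2 values of 3.74, 3.95 and 3.50 in Nkx2-1-shRNA lines, against 5.65, 5.29 and 5.01 in control lines. Every knock-down value lay below the background limit and every control value above it, so Itga1 was at least 1.96-fold lower, its knock-down level taken at the limit. The log2 fold change between the measured means, 3.73 in Nkx2-1-shRNA lines and 5.32 in control lines, was −1.59 (SE 0.19, adjusted p = 0.00202; 0.0593 with unequal variances, and 4.55e-05 to 0.0593 over the alternatives). In RNA of whole cultures, fewer cells with a transcript and less of it per cell cannot be told apart. Itga10 and Itga11, collagen receptor chains of cartilage and of fibroblasts, had log2 fold changes of −0.12 and 0.13 (adjusted p = 0.444 and 0.472), and Itga11 did not reach the background limit in either group.

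The promoters of these neighbors, which moved in opposite directions, are given in the same way, at chr13:114932051-114932350 for Itga2 and chr13:115101915-115102214 for Itga1, both on the minus strand of GRCm38.p6 (RefSeq) and written 5′ to 3′ along the gene, with capitals as before.
Itga2: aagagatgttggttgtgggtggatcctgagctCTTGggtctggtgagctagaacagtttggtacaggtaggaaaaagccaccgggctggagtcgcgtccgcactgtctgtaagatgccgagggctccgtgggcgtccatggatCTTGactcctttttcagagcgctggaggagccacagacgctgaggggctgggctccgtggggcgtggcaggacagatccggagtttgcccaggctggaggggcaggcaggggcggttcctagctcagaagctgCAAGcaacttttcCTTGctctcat
Itga1: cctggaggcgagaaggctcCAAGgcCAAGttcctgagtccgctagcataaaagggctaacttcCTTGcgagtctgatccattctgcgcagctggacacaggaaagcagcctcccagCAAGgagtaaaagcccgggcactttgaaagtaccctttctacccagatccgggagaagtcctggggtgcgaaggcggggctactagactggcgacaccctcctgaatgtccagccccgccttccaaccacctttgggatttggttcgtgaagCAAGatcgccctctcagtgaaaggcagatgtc
The core stood 4 times in the window of Itga2 and 5 times in that of Itga1, and neither held the longer string. Neighbors here are the nearest genes above background in at least 1 group. Of the 20 nearest to Itga2 and of the 20 nearest to Itga1, 10 were lower in the knock-down. In both cases their median log2 fold change was −0.37. Itga2 was 1.27 above that median and Itga1, as measured below background, 1.21 below it. The only one of the 20 genes nearest to Itga1 that rose was Itga2.

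**Figure D3:**
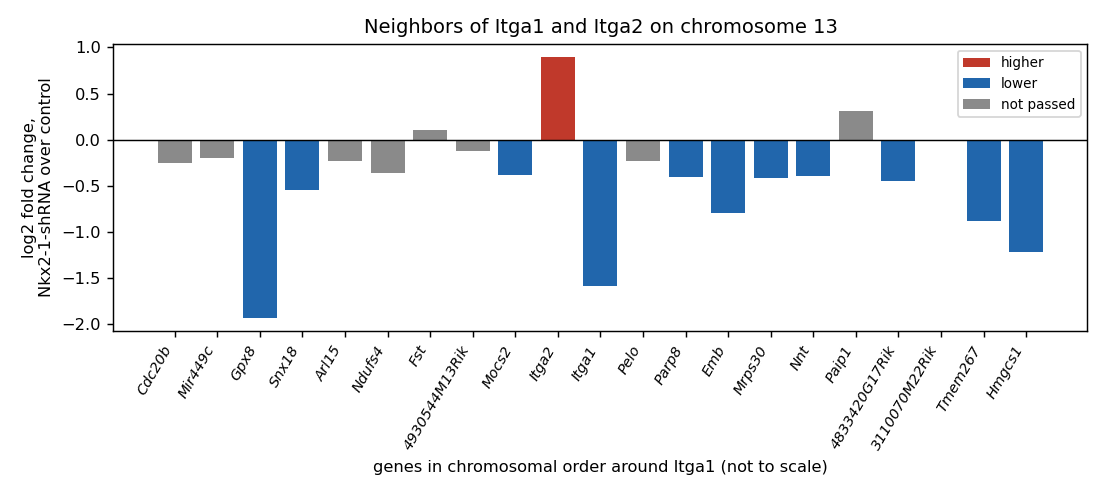
Log2 fold change (y axis, Nkx2-1-shRNA over control, 3 lines each) of Itga1 and of the 10 nearest genes above background on each side, in chromosomal order (x axis, not to scale). Red marks genes that rose, blue genes that fell and gray genes that did not pass; Itga2 at 0.90 stands among mostly lower neighbors, and Itga1, below background in Nkx2-1-shRNA lines, is at −1.59 as measured.

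Among alpha chains of receptors for the RGD motif, Itgav fell and the other 3 did not pass. Itgav, which pairs with Itgb1, Itgb3, Itgb5, Itgb6 or Itgb8 and whose receptors bind vitronectin, fibronectin or latent TGF-beta, had log2 values of 8.75, 8.72 and 8.82 in Nkx2-1-shRNA lines, against 9.32, 9.17 and 9.08 in control lines. There was no overlap, and the log2 fold change of Itgav came to −0.43 (SE 0.090, adjusted p = 0.0198). The call was a narrow one: the adjusted p lay between 0.0502 and 0.0742 when Nkx2-1-shRNA line 1, 2 or 3 or control line 1 or 2 was left out, and 0.0227 without control line 3. Over all alternatives it ran from 0.00511 to 0.119. The 20 genes above background nearest to Itgav had a median log2 fold change of −0.45, with 12 lower and 0 higher among them, close to the value of Itgav itself. Itga5, the fibronectin receptor chain, and Itga8, which binds nephronectin, had log2 fold changes of 0.14 and −0.19 (adjusted p = 0.331 and 0.193). Itga2b, the platelet fibrinogen receptor chain, stood at 0.00. Itga4 and Itga9, which form a class of their own with ligands such as VCAM-1 and tenascin, did not pass. Itga4 did not reach the background limit in either group, whereas Itga9 averaged 4.73 ± 0.22 in Nkx2-1-shRNA lines, against 5.21 ± 0.17 in control lines (SD, n = 3). Its log2 fold change was −0.48 without overlap (adjusted p = 0.0648), with a range of 0.0181 to 0.210 over the alternatives.

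Of the 8 beta chains 4 rose and none fell in limma, and 5 did not overlap between the groups, all with the knock-down higher. Over all transcript clusters 7.61% were higher, 9.24% lower and 34.9% without overlap in either direction. Of genes above background over the whole array, 15.3% were higher and 13.9% lower. Without overlap, 3545 of these 13563 genes were higher and 3580 lower. Itgb1, the partner of most alpha chains, had log2 values of 10.94, 10.85 and 10.91 in Nkx2-1-shRNA lines, against 10.24, 10.13 and 10.18 in control lines. The groups were clearly apart, a 1.64-fold rise (log2 fold change 0.72, SE 0.075, adjusted p = 0.00135). Itgb4, the hemidesmosome chain that pairs with Itga6 alone, had log2 values of 8.43, 8.33 and 8.25 in Nkx2-1-shRNA lines, against 7.42, 7.51 and 7.49 in control lines. No control line came near the knock-down lines, and Itgb4 was 1.82-fold higher (log2 fold change 0.86, SE 0.083, adjusted p = 9.35e-04).

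Itgb5 and Itgb6 both pair with Itgav alone. Itgb5, of the vitronectin receptor, had log2 values of 9.26, 9.31 and 9.14 in Nkx2-1-shRNA lines, against 8.65, 8.75 and 8.55 in control lines. It rose without overlap (log2 fold change 0.59, SE 0.090, adjusted p = 0.00613). Itgb6 is the epithelial chain of the receptor that activates latent TGF-beta. Its log2 values were 4.88, 4.66 and 4.68 in Nkx2-1-shRNA lines, against 4.30, 4.00 and 4.10 in control lines. Control values were all below the background limit and knock-down values all above it, so Itgb6 was at least 1.31-fold higher, its control level taken at the limit. Between the measured means, 4.74 in Nkx2-1-shRNA lines and 4.14 in control lines, the log2 fold change was 0.60 (SE 0.11, adjusted p = 0.0118; 0.0514 in the methods' t-test and 0.0824 with unequal variances, the highest of its alternatives, which began at 0.00157). Itgb3, of platelets and osteoclasts, and Itgb8, another activator of latent TGF-beta, both stood at −0.05 on the log2 scale (adjusted p = 0.762 and 0.797).

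The integrins of leukocytes (Itgad, Itgae, Itgal, Itgam, Itgax, Itgb2 and Itgb7) did not pass in limma, and 1 of the 7, Itgb7, had an unadjusted limma p below 0.05. Their log2 fold changes ran from −0.21 for Itgam to 0.33 for Itgb7. Only Itgad and Itgb7 exceeded the background limit, and the other transcript cluster of Itgad lay below it. Of 8 leukocyte markers 4 were below the limit in both groups, with a mean over the list of 4.23 to 4.37 in Nkx2-1-shRNA lines, against 4.31 to 4.45 in control lines. Among them Fcer1g, an Fc receptor chain of myeloid cells, alone passed, lower at 3.85 in Nkx2-1-shRNA lines, below the limit, against 4.39 in control lines (adjusted p = 0.0146). Of 3 megakaryocyte and platelet markers, set beside Itga2b and Itgb3, 2 were below the limit in both groups, with means of 3.51 to 3.57 in Nkx2-1-shRNA lines, against 3.10 to 3.31 in control lines, where Ppbp alone passed (adjusted p = 0.0223), higher in the knock-down but below the limit in both groups. The list of 6 endothelial markers, of which 4 were below the limit in both groups, averaged 3.66 to 3.82 in Nkx2-1-shRNA lines, against 3.98 to 4.12 in control lines. In that list Tek, the angiopoietin receptor, alone passed, at least 2.68-fold lower (adjusted p = 4.10e-04), and like Itga1 its knock-down mean of 3.77 was below the limit and its control mean of 5.77 above it. The 10 fibroblast and smooth muscle markers averaged 4.49 to 4.59 in Nkx2-1-shRNA lines, against 4.41 to 4.52 in control lines, with 3 below the limit in both groups and none called in limma. The part of these markers in the results was not tested.

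Some chains that share a receptor, and some alternative chains of the same kind, did not change alike. Other partners rose together, Lama3 with Lamb3, and Itga2 and Itga3 with Itgb1, whereas Itga1 and Itgav, which also pair with Itgb1, fell. These, too, were named after their values had been seen. The following pairs were chosen after their values had been seen, so the changes are given with no test, as the difference between the genes of a pair within each array, Nkx2-1-shRNA minus control. Itga2 relative to its neighbor Itga1 shifted by at least 1.86, with Itga1 held at the background limit in Nkx2-1-shRNA lines (2.48 as measured). Lamb3 and Lamb2 relative to Lamb1 shifted by 2.48 and 1.52. Itgb5 relative to Itgav, its only alpha partner, shifted by 1.01, and Itgb6 relative to the same partner by at least 0.82, with Itgb6 held at the limit in control lines (1.03 as measured). Itgb4 relative to Itga6, its only alpha partner, shifted by 0.71. In all 6 pairs the knock-down arrays lay above all control arrays, both as measured and with Itga1 and Itgb6 held at the limit. For every pair but Itgb4 and Itga6 this follows from the choice, a gene that rose without overlap set against one that fell without overlap. It is therefore no further result. A probe level cannot be set against that of another gene, so which chain of a pair is the scarcer is not known from these arrays.

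**Figure D4:**
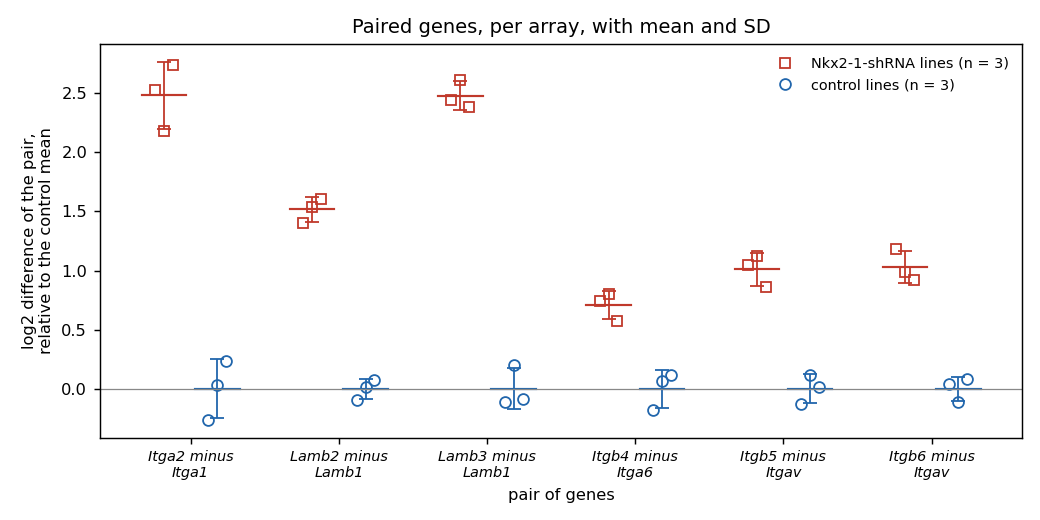
Difference between the log2 values of the 2 genes of a pair within each array (y axis), relative to the mean of the control lines, for 6 pairs (x axis), with Nkx2-1-shRNA lines as squares on the left and control lines as circles on the right; bars give the mean and SD of 3 lines. Values are as measured, including Itga1 in Nkx2-1-shRNA lines and Itgb6 in control lines below the background limit. Lamb3 relative to Lamb1 shifted by 2.48. No pair overlapped, which the choice of genes fixed for every pair but Itgb4 and Itga6.

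The genes that passed can be set beside those around them on the chromosome. Around the 14 genes, the median log2 fold change of the nearest genes above background ran from −0.45 at Itgav to 0.11 at Lama3. Lamb3 stood 1.86 above the median of its 13 neighbors, Itga3 0.98 above its 20 and Lamb1 0.84 below its 20, for which the medians were −0.12, −0.09 and 0.09.

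Genes that work with integrins and laminins were read from lists, each given by its count and its median beside the 7.61% higher, 9.24% lower and the median of −0.03 of all transcript clusters. Most genes of these lists were above background, and of such genes over the whole array 15.3% were higher and 13.9% lower. Of 36 measured adaptors and regulators that link integrins to actin and signaling, 8 rose and 4 fell, with a median of 0.09. Tns4, an epithelial tensin that binds the tail of Itgb1, had log2 values of 9.37, 9.09 and 9.28 in Nkx2-1-shRNA lines, against 7.05, 7.01 and 6.62 in control lines. The groups were well apart, and its log2 fold change of 2.35 exceeded that of every integrin and laminin gene (SE 0.14, adjusted p = 1.57e-04). Tns1, another tensin, rose by 1.15, Ptk2b, a focal adhesion kinase family member, by 1.06, and Fermt1, the kindlin of epithelia, by 1.05 (adjusted p = 4.27e-04, 4.50e-04 and 5.24e-04). The value of Tns1 is that of the brightest of its 6 transcript clusters, and the others are not reported here. Tln1, the talin that activates integrins in most cells, stood at −0.09 (adjusted p = 0.539). The 4 that fell were Tln2, Lims1, Rsu1 and Sharpin, named after their values had been seen; 1 or 2 of the list were lower when any one of the 3 Nkx2-1-shRNA lines or control line 1 was left out.

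Of the 4 hemidesmosome partners, Plec, the plectin that links Itgb4 to keratin, was higher at 8.64 ± 0.11 in Nkx2-1-shRNA lines, against 7.70 ± 0.079 in control lines (SD, n = 3; log2 fold change 0.94, adjusted p = 9.24e-04). Dst, whose epithelial form sits in the same plaque, was lower at 7.31 ± 0.12 in Nkx2-1-shRNA lines, against 7.86 ± 0.14 in control lines (log2 fold change −0.56, adjusted p = 0.0134). Col17a1, the collagen of hemidesmosomes, and Cd151, a tetraspanin bound to the laminin receptors, had log2 fold changes of 0.03 and 0.12 and did not pass. The list held 1 gene that rose and 1 that fell, with Itga6 and Itgb4 counted apart. In the methods' t-test and with unequal variances Dst did not pass.

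Of 22 other basement membrane genes 5 rose and 1 fell, with a median of 0.13. Fras1, which fastens epithelium to the matrix in the embryo, had log2 values of 4.30, 4.13 and 3.95 in Nkx2-1-shRNA lines, against 7.04, 6.996 and 6.82 in control lines. All knock-down values were below the background limit, which makes Fras1 at least 6.07-fold lower, and the log2 fold change of the measured means, 4.13 in Nkx2-1-shRNA lines and 6.95 in control lines, was −2.82 (adjusted p = 6.42e-05). Npnt, which encodes nephronectin, a ligand of the Itga8 receptor, rose by 0.75, Col18a1, the source of endostatin, by 0.45, and Ntn4, a netrin that binds laminin gamma chains, by 0.35 (adjusted p = 0.00119, 0.0124 and 0.0391). The remaining 2 that rose were Col4a2 and Tinagl1, named after their values had been seen. Col4a1, a chain of the collagen of all basement membranes, was at −0.01. With each line left out in turn, 1 to 3 genes of the list rose in place of 5. Among 7 laminin receptors outside the integrin family only Sdc1 passed, a syndecan that rose by 0.95 (adjusted p = 9.18e-04), while Dag1, the dystroglycan gene, stood at 0.26 (adjusted p = 0.0654).

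Of 28 measured integrin ligands outside the laminins 11 rose and 6 fell, with a median of 0.10. Tgfbi, a secreted ligand of several integrins, rose by 3.26, Thbs1, the matrix protein thrombospondin that also activates TGF-beta, by 2.91, Ltbp1, which stores latent TGF-beta in the matrix, by 1.85, and Fn1, the fibronectin gene, by 1.17 (adjusted p = 2.82e-05, 4.21e-05, 2.06e-04 and 0.00130). Thbs2, a relative of Thbs1, fell by 1.79 (adjusted p = 7.44e-04). Of 7 enzymes known to cut laminin or its processing enzymes 2 rose and 1 fell, with a median of 0.02. Furin, a proprotein convertase, rose by 1.16, and Mmp14, a membrane-bound metalloproteinase that cleaves laminin, by 0.86 (adjusted p = 2.87e-04 and 0.00259). Bmp1, a protease that trims laminin chains, fell by 0.37 (adjusted p = 0.0158), a call lost when any one of the 3 Nkx2-1-shRNA lines or control line 2 was left out.

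**Figure D5:**
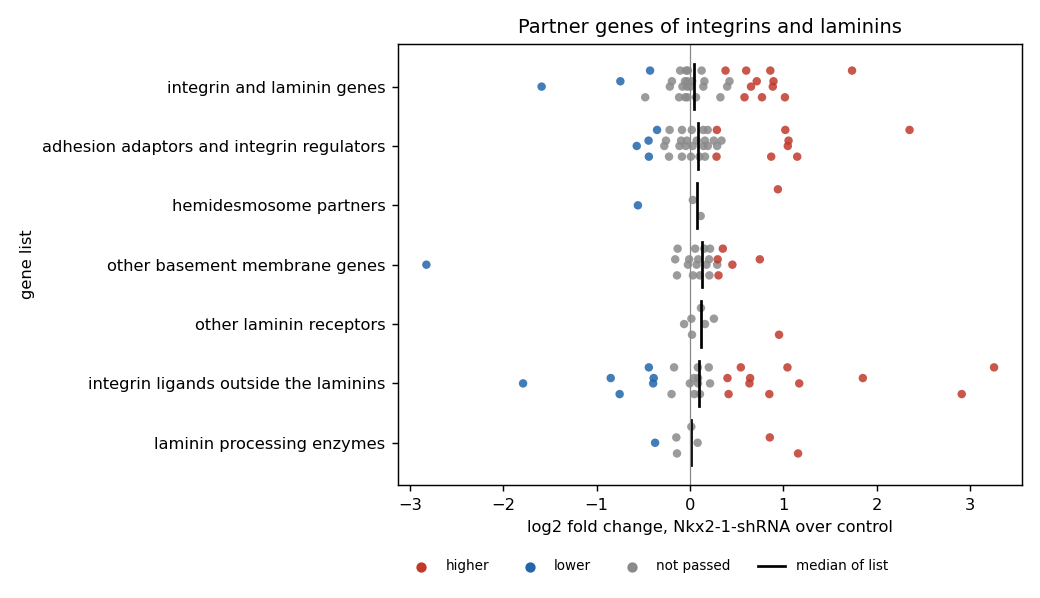
Log2 fold change (x axis, Nkx2-1-shRNA over control, 3 lines each) of every measured gene of the integrin and laminin set and of 6 lists of genes that work with it (y axis, points spread for view only). Red marks genes that rose, blue genes that fell and gray genes that did not pass, and black bars are list medians, which lie between 0.02 and 0.13.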

How the data were processed

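Total RNA of 6 MLE15 lines (3 Nkx2-1-shRNA, 3 control) was labeled and hybridized to Affymetrix Mouse Gene 1.0 ST arrays. Per the submitters' processing notes, the authors used Affymetrix Expression Console 1.1 for RMA (background correction, quantile normalization, probe summary), which leaves deposited values in log2 units. The genome build is not given in the sources used here. Values were used as they stand (35557 transcript clusters, at most 114 identical values in any pair of arrays). RMA draws small changes of low values toward 0, and there are no counts behind an array value, so the number of arrays limits the precision.

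Gene symbols came from the platform annotation: 21789 transcript clusters had 1 symbol, 1621 several and 12147 none or no entry. The comparison used lmFit and eBayes of limma 3.58.1 in R 4.3.3, without a block (degrees of freedom 4 residual, 2.86 prior), two-sided, with Benjamini-Hochberg adjustment over all transcript clusters; a call is an adjusted p under 0.05. The background limit rests on 1243 transcript clusters of 1227 olfactory, vomeronasal and taste receptor genes. The study's methods name a t-test, which is an alternative here. The other alternatives were unequal variances, a trended robust prior, array weights, repeated quantile normalization, median centering, 3 filters on transcript clusters, the replicate number as a block, averaging the transcript clusters of Itgad and each line left out. The fit was tested on simulated data.

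Neighbors were up to 10 genes on each side in RefSeq's order on GRCm38.p6, the nearest with a single symbol and above background in at least 1 group. Genes below background in both groups were skipped. Promoters (300 bases) were read from RefSeq, with motifs searched on both strands. Proteins were not used here. All 36 genes were named, with array values for those that passed; of each partner list the 4 largest changes that passed and 1 well known gene were named. The genes and lists were chosen with earlier results of these data known, so they are no independent evidence. Some genes of these families and lists are not reported here. The other experiments of the study were not analysed here.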

Additional observations from a re-analysis of the deposited data

How the results depend on the processing

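Of the 14 integrin and laminin calls, 13 held in the methods' t-test, 9 with unequal variances, 12 among transcript clusters above the median level (where the other 2, Itga1 and Itgb6, were not tested), 12 with the replicate number as a block and 12 to 14 with one line left out; all 14 held under the other alternatives. No call changed sign. Over single genes and alternatives, 206 values of the 14 called genes stayed called and 16 did not, and 320 values of genes not called stayed so while 7 passed (Itga7, Itga9 and Lama4); the cause was not tested. The count of lower members, 3, was 1 with unequal variances. With each line left out in turn, 10 to 11 members were higher and 2 to 3 lower.

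Over all transcript clusters, unequal variances gave 832 higher and 760 lower and the methods' t-test gave 1983 lower. With each line left out in turn, 1690 to 2225 were higher and 1815 to 2750 lower. Members at the threshold of the study, 3 in the fit reported, were 0 in the methods' t-test, with unequal variances, with the replicate block and with each line left out in turn (lowest and highest both 0). They were 7 with a trended robust prior, 6 among transcript clusters above background, 9 among those with 1 symbol and 7 in the brighter part above the median level; the cause was not tested. Among the lists of partner genes, unequal variances left 1 adaptor lower, 2 basement membrane genes higher, 4 ligands higher, and of the enzymes 1 higher and 0 lower; 6 alternatives gave 2 higher laminin receptors outside the integrins in place of 1. Nkx2-1 had the same log2 fold change of −0.69 with unequal variances, at an adjusted p of 0.0550.

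Deviations of same-numbered lines had correlations of 0.058, 0.14 and −0.034, and those of lines with different numbers ran from −0.18 to 0.13. With 3 lines per group these values cannot decide whether the numbers pair the lines. With the replicate number as a block, 11 members were higher and 3 lower, 2269 transcript clusters higher and 2775 lower. Lama5 and Itgav lost their calls (adjusted p = 0.0546 and 0.0526), Itga9 and Lama4 gained them (0.0496 and 0.0413), and Nkx2-1 kept −0.69 (0.0113).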
